A study of Mus musculus with 10 samples.

Results

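NOTCH signaling was followed here through 10 genes, which were taken by symbol from the 54838 genes listed in the deposited tables. They comprise 3 receptors (Notch1, Notch2 and Notch3), 4 ligands (Dll1, Dll4, Jag1 and Jag2), the DNA-binding effector Rbpj and the target genes Hes1 and Nrarp. All 10 were found in the tables, and all 10 had enough counts to be tested. Crypts were isolated from the jejunum of 5 WT and 5 Arid3a cKO animals, and 1 library of polyadenylated RNA was made from each, to ask how loss of the transcription factor ARID3A changes crypt gene expression. The cKO mice carried floxed alleles of Arid3a (Arid3a fl/fl) and Villin-CreERT2, a tamoxifen-activated Cre driven in the intestinal epithelium, so Arid3a is deleted in epithelial cells and kept in other cells. Both genotypes received tamoxifen on 3 consecutive days and were culled 1 month after the first injection. Strain, age and the alleles carried by the WT mice were not given in the sources used here, and the animal identifiers form 6 stems, 3 in each genotype, none of which is shared between WT and cKO.

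When a NOTCH receptor meets a ligand on a neighboring cell, ADAM10 and then γ-secretase cut it, and the released intracellular domain binds RBPJ and switches on targets such as Hes1. In the crypt, Paneth cells and secretory progenitors present DLL1 and DLL4 to stem and progenitor cells that bear NOTCH1 and NOTCH2. HES1 represses Atoh1, the master gene of the secretory lineage, so NOTCH activity holds cells in the absorptive path, and NRARP is a target that feeds back to limit the signal.

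Nrarp and Dll4 were the members whose lower level in cKO crypts was called under every processing alternative tried, so the DNA just upstream of their transcription starts is printed here. Each sequence is the 250 bases before the RefSeq start (mouse build GRCm38.p6), written 5′ to 3′ on the strand of the gene. Capitals mark 2 motifs searched on both strands: the N-box CACNAG, which appears as CTNGTG when read on the opposite strand and which HES repressors can bind, and the E-box CACGTG. The Nrarp window lies at chr2:25180508-25180757 (+ strand) and the Dll4 window at chr2:119325534-119325783 (+ strand), both before the first exon.
Nrarp: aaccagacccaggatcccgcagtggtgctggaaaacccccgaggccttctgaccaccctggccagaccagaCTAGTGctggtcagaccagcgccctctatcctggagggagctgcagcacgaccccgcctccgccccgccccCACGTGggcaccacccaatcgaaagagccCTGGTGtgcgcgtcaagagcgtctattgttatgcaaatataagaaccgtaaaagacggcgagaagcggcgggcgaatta
Dll4: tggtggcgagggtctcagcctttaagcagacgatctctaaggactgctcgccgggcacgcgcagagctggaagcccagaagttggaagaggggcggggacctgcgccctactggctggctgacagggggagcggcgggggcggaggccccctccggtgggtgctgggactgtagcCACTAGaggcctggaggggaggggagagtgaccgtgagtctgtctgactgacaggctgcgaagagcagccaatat
The Nrarp window held 2 N-boxes and 1 E-box, and the Dll4 window held 1 N-box. The N-box letters occur in 36.7% of the 32851 windows of this length in the RefSeq table, the E-box in 6.02% and the RBPJ core TGGGAA, or TTCCCA when read on the opposite strand, in 21.6%. Windows were available for 9 members. An N-box was present in 5 of them (Nrarp, Dll4, Notch1, Notch2 and Notch3), and RBPJ core letters were present only in windows of Rbpj itself. A match describes the letters of a window and shows no binding.

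The libraries held 27050455 to 28152743 estimated counts in WT and 28314069 to 31053622 in cKO. Before scaling between libraries, 1 CPM (counts per 1000000 counts of the library) thus stands for about 27 to 31 counts. The CPM given here also carry a scaling factor of each library (0.934 to 1.083), which shifts that number somewhat. Arid3a, the deleted gene, averaged 2.42 ± 0.396 CPM in WT against 0.673 ± 0.350 CPM in cKO (SD, n = 5 each), with every cKO library (0.303 to 1.17 CPM) below every WT library (1.91 to 2.75 CPM). Its log2 fold change was −1.84 (SE 0.32, adjusted p = 0.00204, edgeR's quasi-likelihood test, Benjamini-Hochberg adjusted, as for every adjusted p that follows unless another tool is named). The epithelial markers Epcam, Cdh1, Vil1, Krt8, Krt19 and Cdx2 summed to 5604 to 6488 CPM in WT and 6473 to 7403 CPM in cKO, against 57.3 to 114 and 32.7 to 84.6 CPM for 8 leukocyte markers. Of the latter edgeR called 0 (3 at an unadjusted p below 0.05) and DESeq2 called 1, Csf1r, lower (adjusted p = 0.0126). Of 14719 genes tested, 4167 passed an adjusted p of 0.05 (28.3%), 2298 higher and 1869 lower in cKO. With library size as the only scaling the split was 1544 higher and 4030 lower, the median log2 fold change of all genes moved from −0.03 to −0.16, and in the fits of log2(TPM + 1) and log2(TPM + 0.1) the splits were 1411 to 2760 and 1399 to 2742.

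All 10 members had a negative log2 fold change in cKO crypts, with a median of −0.38, beside 7964 of 14719 genes (54.1%) and a median of −0.03 over all genes tested. Of the 10, 3 (30%) passed the test: the target Nrarp and the ligands Dll4 and Dll1. All 3 were lower in cKO, where 12.7% of all genes tested were called lower and 28.3% were called in either direction. The same 3 genes were those in which every cKO library lay below every WT library, a pattern seen in 7.62% of all genes tested. DESeq2 called 5 members, beside 27.8% of all genes it tested. The count of 3 was 6 without WT replicate 2, which had low Notch1 and Notch2, and 2 without WT replicate 3 or cKO replicate 2, 3 or 5. The sign was negative for all 10 under each scaling tried. Without WT replicates 3 and 4 together, it turned positive for Notch3 (0.14) and Rbpj (0.014). With log2(TPM + 1), Notch3 (−0.03) lay above the median of all genes (−0.10).

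**Figure D1:**
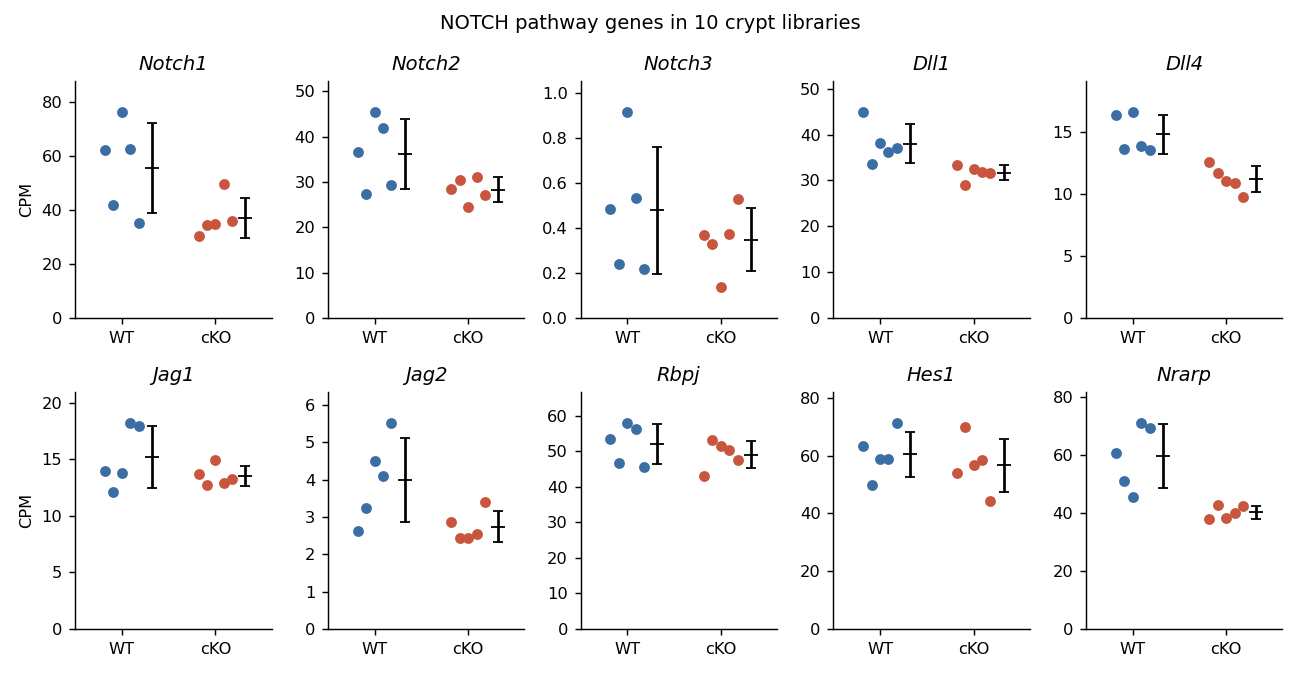
CPM of the 10 NOTCH pathway genes in each library, by genotype, on linear axes that start at 0; points are animals, in replicate order, and the bar beside them is the mean ± SD (n = 5 each). The cKO points lie below all WT points for Dll1, Dll4 and Nrarp, and the genotypes overlap for the other 7 genes.

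Among the receptors, Notch1 and Notch2, the pair that acts in crypt epithelium, had lower means in cKO but missed the threshold. Notch1 was at 62.1, 41.9, 76.2, 62.3 and 35.0 CPM in WT replicates 1 to 5 and at 30.3, 34.5, 34.9, 49.7 and 36.1 CPM in cKO replicates 1 to 5. WT replicates 1, 3 and 4 stood above every cKO library, while WT replicates 2 and 5 lay within the cKO range. The log2 fold change was −0.58 (SE 0.21, 95% interval −1.05 to −0.12, adjusted p = 0.0605). The call turned with the processing: the adjusted p was 0.0195 with DESeq2 (log2 fold change −0.57), 0.0393 without WT replicate 2, 0.0215 without WT replicate 5 and 0.0334 without cKO replicate 4.

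Notch2 gave 36.5, 27.4, 45.4, 41.9 and 29.3 CPM in the WT libraries and 28.6, 30.5, 24.5, 31.1 and 27.04 CPM in the cKO libraries, in replicate order. The same WT replicates, 1, 3 and 4, stood above all cKO libraries, and replicates 2 and 5 lay among them. Its log2 fold change was −0.35 (SE 0.13, 95% interval −0.64 to −0.06, adjusted p = 0.0685), and it passed without WT replicate 2 (adjusted p = 0.0185) or 5 (adjusted p = 0.0428). Notch3, a receptor best known from vascular mural cells, was covered by 6 to 27 counts in WT and 4 to 14 in cKO, with a log2 fold change of −0.46 (95% interval −1.41 to 0.49, adjusted p = 0.455), so that neither a fall nor a rise of moderate size could be detected at this depth. Of the mural markers, Pdgfrb, Rgs5, Cspg4, Mcam, Myh11, Acta2 and Des summed to 3.72 to 6.19 CPM in WT and 2.12 to 5.64 CPM in cKO. Of the 6 tested, 1 was called, lower, beside 12.7% called lower among all genes tested.

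Notch1, Notch2 and Rbpj shared a pattern between libraries that went with transcript length and with markers of several cell types. For the 235 tested genes of 8000 bases or more, the log2 deviation of each gene from its mean over the 10 libraries was taken. The median of these deviations was 0.127, −0.226, 0.197, 0.108 and −0.205 in WT replicates 1 to 5, and −0.0487 to 0.0631 in cKO. Long genes were thus low in the WT replicates in which Notch1 and Notch2 were low. Over the 10 libraries, after removal of the genotype means, Pearson's r with this median was 0.906 for Notch1 (7893 to 9488 bases), 0.902 for Notch2 (10364 to 10500 bases) and 0.859 for Rbpj (3896 to 5359 bases), against −0.146 for Nrarp (2582 bases). The other members lay between: 0.756 for Notch3, 0.552 for Dll4, 0.454 for Dll1, 0.148 for Hes1 and 0.00856 for Jag1, except Jag2 at −0.237. Notch1, Notch2 and Rbpj went with marker sums as closely. In that order, r was 0.897, 0.849 and 0.887 with the endothelial markers, 0.829, 0.881 and 0.800 with the stem cell markers and −0.850, −0.702 and −0.954 with the epithelial markers. WT replicates 2 and 5 also had the lowest sums of stem cell markers (516 and 563 CPM) and of endothelial markers (9.46 and 9.08 CPM) among the WT libraries. The parts of length and of cell makeup in the receptor results were not separated. These values are a description over libraries that differ in their level of long genes as a whole, and carry no p. When the length trend of each library was entered as an offset, an alternative chosen after seeing the data, the log2 fold change of Notch1 was −0.56 (adjusted p = 0.0113) and that of Notch2 −0.35 (adjusted p = 0.00541). The sizes moved by 0.02 or less while the calls turned. Without WT replicates 3 and 4 together the Notch1 value was −0.32 (adjusted p = 0.323) and the Notch2 value −0.13 (adjusted p = 0.455), and without WT replicates 2 and 5 together they were −0.82 (adjusted p = 0.00412) and −0.51 (adjusted p = 0.00329).

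**Figure D2:**
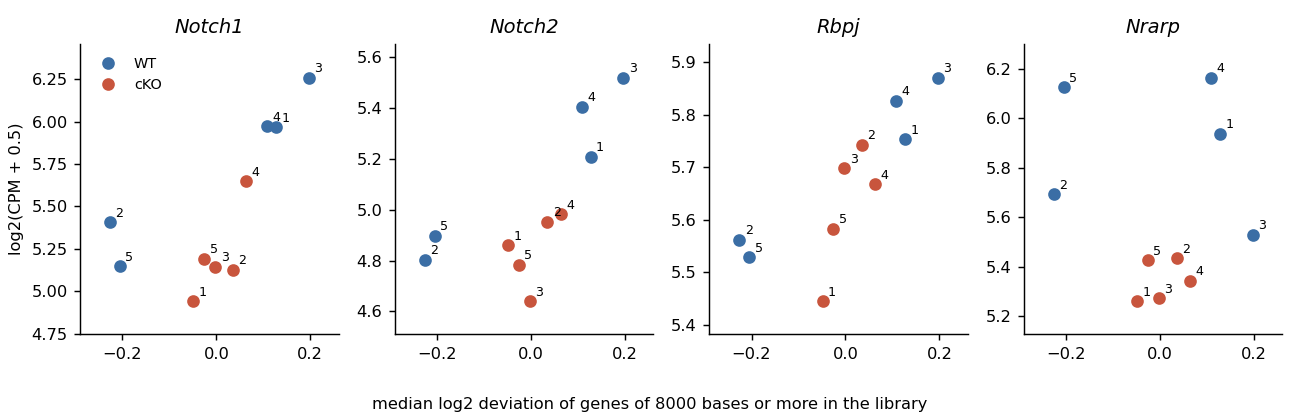
log2(CPM + 0.5) of Notch1, Notch2, Rbpj and Nrarp against the median log2 deviation of the 235 genes of 8000 bases or more in the same library; points are libraries, numbers are replicates, blue is WT and red is cKO. WT replicates 2 and 5 lie at −0.226 and −0.205 on the horizontal axis and are the lowest WT libraries for the first 3 genes, while the Nrarp libraries of WT stand above those of cKO along the whole axis.

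The Delta-like ligands, which Paneth cells and secretory progenitors present, were called lower, and the Jagged ligands did not pass. Among the ligands, the estimate of Jag2 was still the most negative (log2 fold change −0.54). Dll4 was at 16.4, 13.7, 16.6, 13.9 and 13.6 CPM in WT replicates 1 to 5 and at 12.6, 11.8, 11.1, 10.9 and 9.79 CPM in cKO replicates 1 to 5. The highest cKO library lay below the lowest WT library. Dll4 fell by 0.40 on the log2 scale (95% interval −0.61 to −0.19, adjusted p = 0.0101) and passed in 24 of 24 alternatives.

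Dll1 was at 44.9, 33.7, 38.1, 36.2 and 37.0 CPM in WT and 33.4, 29.0, 32.4, 31.9 and 31.6 CPM in cKO. The genotypes did not overlap, but WT replicate 2 (33.7 CPM) and cKO replicate 1 (33.4 CPM) almost touched. Dll1 fell by 0.26 on the log2 scale (SE 0.08, 95% interval −0.44 to −0.09, adjusted p = 0.0296). The call was lost when WT replicate 1, 3 or 5 or cKO replicate 2, 3, 4 or 5 was left out (adjusted p of 0.0502 to 0.0739, log2 fold changes of −0.27 to −0.19). It was also lost on the TPM scale (−0.22 with log2(TPM + 0.1), adjusted p = 0.161, limma) with the effective length as an offset (−0.11, adjusted p = 0.420), with no filter on low counts (−0.26, adjusted p = 0.0522) and with animals of one identifier stem summed (−0.29, adjusted p = 0.0852). The transcript length that RSEM assigned to Dll1 was 2515 to 2667 bases in WT and 2234 to 2568 bases in cKO.

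Jag1 ranged from 12.1 to 18.2 CPM in WT and from 12.7 to 14.95 CPM in cKO (log2 fold change −0.17, 95% interval −0.43 to 0.08, adjusted p = 0.296). Jag2 was at 2.61, 3.23, 4.51, 4.08 and 5.52 CPM in WT and 2.86, 2.43, 2.45, 2.55 and 3.40 CPM in cKO. WT replicates 1 and 2 lay among the cKO libraries, and the other WT libraries lay above all of them. The log2 fold change of Jag2 was −0.54 (SE 0.20, adjusted p = 0.0634), which passed with DESeq2 (−0.53, adjusted p = 0.0481) and without WT replicate 1 (−0.66, adjusted p = 0.0219) or 2 (−0.61, adjusted p = 0.0476). It was −0.28 (adjusted p = 0.548) with the effective length as an offset and −0.34 (adjusted p = 0.426, limma) with log2(TPM + 0.1), and the length that RSEM assigned to Jag2 ran from 1909 to 5106 bases. Whether Dll4 moved more than Jag1 was tested on the log2 ratio of their CPM, 1 of 2 ratios chosen after the values were seen. The ratio differed by −0.24 (cKO minus WT), with p = 0.151 in an exact two-sided permutation test over 252 assignments (0.151 after adjustment over the 2 ratios), so a difference between these ligands was not shown.

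Markers of other cells moved in the same libraries. The Paneth markers Lyz1, Mmp7, Ang4, Defa24, Mptx2 and Pnliprp2 summed to 11537 to 18092 CPM in WT and 7829 to 10648 CPM in cKO. Of these, 5 of 6 were called lower and none higher, where 12.7% of all genes tested were called lower. The endothelial markers Pecam1, Cdh5, Kdr, Tek, Emcn, Esam, Cldn5 and Egfl7 summed to 9.08 to 13.7 CPM in WT and 6.57 to 9.48 CPM in cKO. Of the 4 tested, 1 (Pecam1) was called lower, and Cdh5, Kdr, Emcn and Cldn5 had between 0 and 25 counts in any library. Cdh5 and Kdr were below the filter of edgeR, and DESeq2 called both lower (adjusted p = 0.00756 and 0.0199). Endothelium and Paneth cells both use DLL4. Over the 10 libraries, with genotype means removed, Pearson's r of Dll4 was 0.75 with the Paneth sum and 0.145 with the endothelial sum. For the other called members, r with the Paneth sum was 0.292 (Dll1) and −0.494 (Nrarp). These values carry no p, and the part of either cell type in the Dll4 result was not tested. Fewer cells of a type and less RNA per cell cannot be told apart in bulk crypt RNA.

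Of the effector and the targets, Nrarp fell, and Rbpj and Hes1 did not pass the test. Rbpj, which carries the signal to DNA, averaged 52.0 ± 5.58 CPM in WT against 49.0 ± 3.92 CPM in cKO (log2 fold change −0.08, 95% interval −0.27 to 0.10, adjusted p = 0.486). Hes1, the repressor through which NOTCH holds back the secretory program, was at 63.4, 49.9, 58.9, 58.7 and 71.4 CPM in WT and 53.9, 69.7, 56.7, 58.3 and 44.2 CPM in cKO. The libraries of the genotypes were interleaved. The log2 fold change of Hes1 was −0.10 (SE 0.12, 95% interval −0.35 to 0.16, adjusted p = 0.572), and no alternative of 24 called it.

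Nrarp was at 60.8, 51.2, 45.7, 71.3 and 69.4 CPM in WT and 37.8, 42.7, 38.2, 40.1 and 42.5 CPM in cKO. Every cKO library lay below the lowest WT library, replicate 3, and the cKO libraries were closer together (SD 2.32 CPM) than the WT libraries (SD 11.1 CPM). Nrarp fell by 0.57 on the log2 scale (SE 0.12, 95% interval −0.82 to −0.32, adjusted p = 0.00463) and passed in 24 of 24 alternatives. The log2 ratio of Nrarp to Hes1 was −0.03 ± 0.23 in WT and −0.47 ± 0.24 in cKO (SD, n = 5 each). The difference of −0.44 had p = 0.0238 in an exact two-sided permutation test (0.0476 after Benjamini-Hochberg adjustment over the 2 ratios). The smallest p this design allows is 0.00794. The difference lay between −0.55 and −0.37 with each animal left out in turn, with exact permutation p-values of 0.0159 to 0.0476. This pair was chosen after the values of both genes were seen. Adjustment over the 2 ratios does not cover that choice, so these p-values are a description. Hes5, another target, was below the filter and was not tested with edgeR: its estimated counts were 4, 5, 3, 21.4 and 16 in WT and 3, 0, 1, 0 and 1.51 in cKO, and DESeq2 without that filter gave an adjusted p of 0.00976. WT replicates 4 and 5 held most of the Hes5 counts, and WT replicate 3 equalled cKO replicate 1.

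**Figure D3:**
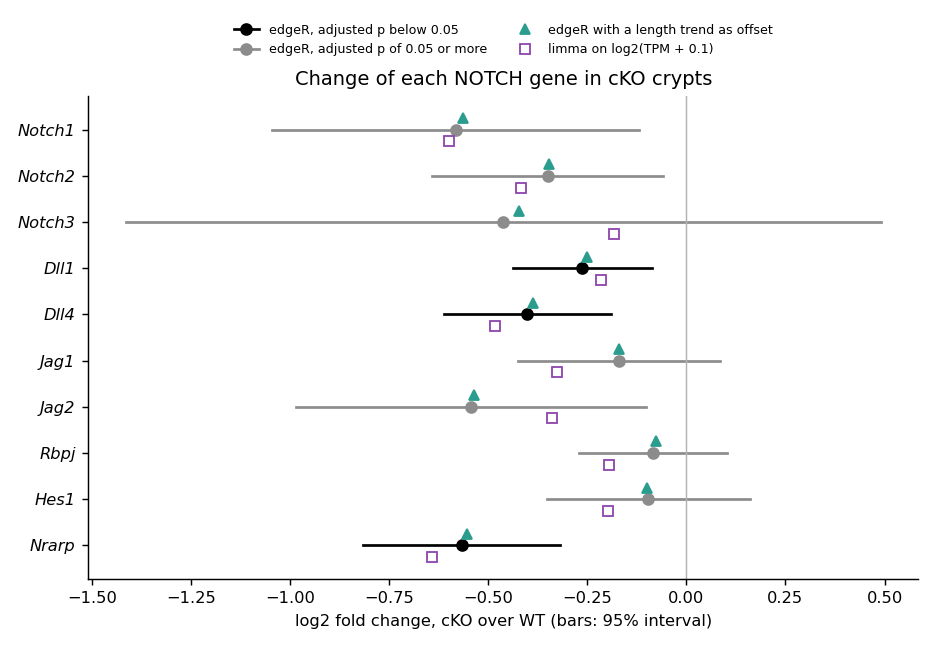
log2 fold change of each NOTCH gene, cKO over WT, from edgeR with its 95% interval (black for an adjusted p below 0.05, gray otherwise), with the estimates from the length-trend offset (triangles) and from log2(TPM + 0.1) (open squares). All points lie below 0, the intervals of Notch3, Jag1, Rbpj and Hes1 span 0, and the interval of Nrarp (−0.82 to −0.32) lies farthest from 0.

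Per transcript length, on the authors' TPM scale, the members spanned a wide range and kept one order in both genotypes: Hes1, Nrarp, Dll1, Rbpj, Notch1, Dll4, Notch2, Jag1, Jag2 and Notch3. In WT the median levels were 71.5 TPM for Hes1, 32.7 for Nrarp, 19.6 for Dll1, 13.9 for Rbpj and 8.83 for Notch1. The rest had medians of 5.29 TPM for Dll4, 4.68 for Notch2, 3.78 for Jag1, 1.5 for Jag2 and 0.08 for Notch3. In both genotypes Hes1 lay above Nrarp, Jag1 above Jag2, and Jag2 above Notch3 without overlap of the libraries. Nrarp and Dll1, Notch1 and Dll4, Dll4 and Notch2, and Notch2 and Jag1 overlapped in both genotypes, so these neighbors were not separated by the spread between animals. Within a library the order could still hold: Notch1 was above Dll4 in 5 of 5 libraries of each genotype, and Nrarp above Dll1 in 5 of 5 WT and 4 of 5 cKO libraries. Dll1 and Rbpj, and Rbpj and Notch1, overlapped in WT and not in cKO. Dll1 made up 61.5 to 68.7% of the summed TPM of the 4 ligands in WT and 62.7 to 69.8% in cKO. Notch1 made up 57.6 to 66.6% of the summed TPM of the 3 receptors in WT and 55.3 to 63.5% in cKO, so the leading ligand and the leading receptor were the same in all 10 libraries.

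**Figure D4:**
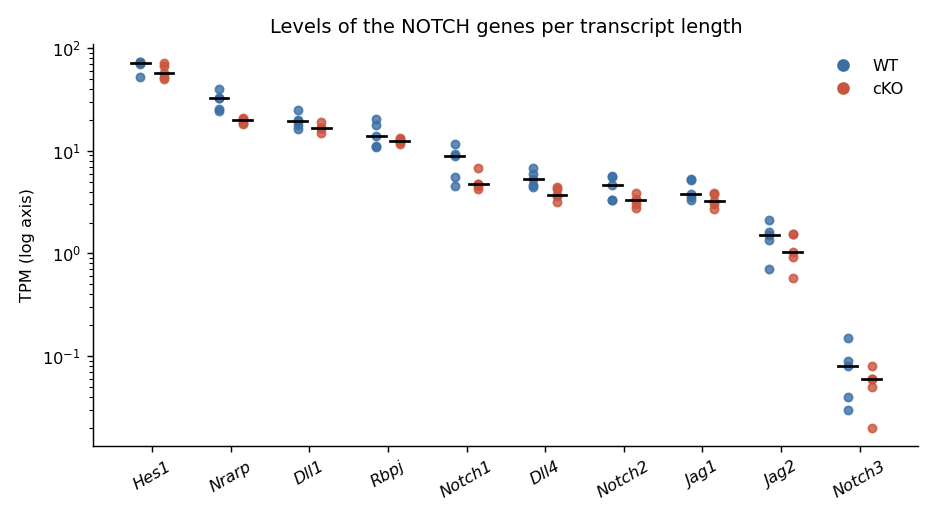
TPM of the 10 NOTCH genes in each library on a log axis, ordered by the WT median; points are animals (blue WT, red cKO, n = 5 each) and black bars are medians. Hes1 stands highest at medians of 71.5 TPM in WT and 57.1 TPM in cKO, and Notch3 lowest at 0.08 and 0.06 TPM.

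Between animals of one genotype, the receptors varied together. Over the 10 libraries, with genotype means removed, Pearson's r was 0.846 for Notch2 and Notch3, 0.823 for Notch1 and Notch2 and 0.805 for Notch1 and Rbpj, and 10 of the 45 pairs of members had r of at least 0.5. The first of these rests on the few counts of Notch3, and Notch1, Notch2 and Rbpj share the length pattern given above. Among 9106 genes with a mean of at least 10 CPM, those most like Notch1 by the same measure were AI464131 (r = 0.972), Tcaf2 (0.966) and Kank1 (0.963). Those most like Dll1 were Slu7 (0.942), Zfyve26 (0.938) and AW549877 (0.855). Those most like Hes1 were Aplf (0.876), Kdelc2 (0.872) and Fam92a (0.842). These are the highest values among 9106 genes ranked over only 10 libraries. How high r would rise among unrelated genes was not tested, so the lists do not show that these genes vary with the members.

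Beyond the 10 members, 73 further genes of the pathway were read from the same fit, of which 67 were tested. Of these, 9 were called higher and 11 lower in cKO (29.9%, beside 28.3% of all genes tested), with a median log2 fold change of −0.07, so the share called was near the background. The count of 20 was 13 without WT replicate 3, 12 without WT replicate 4, 13 without cKO replicate 1 and 11 without cKO replicate 5.

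Among the genes of γ-secretase, the protease that frees the intracellular domain, Psen2 fell (log2 fold change −0.26, adjusted p = 0.0294). None of the 3 genes for maturation and shedding, Furin, Adam10 and Adam17, passed. Of 6 glycosylation genes, Lfng, a fringe enzyme that tunes which ligand a receptor answers, fell from 18.2 ± 2.21 to 13.5 ± 2.43 CPM (−0.43, adjusted p = 0.0240). Of 6 genes for ligand endocytosis, the E3 ligase gene Neurl1b (0.42, adjusted p = 0.00895) and the endocytic adaptor gene Epn1 (0.25, adjusted p = 0.0294) rose. The 3 tested further receptors and ligands, Notch4, Dll3 and Dner, did not pass.

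Receptor trafficking genes held called members in both directions, 3 higher and 2 lower of 10 (50%, beside 15.6% higher and 12.7% lower among all genes tested). Numb, an adaptor that sends NOTCH receptors to degradation, was at 65.8, 56.9, 56.4, 58.1 and 57.7 CPM in WT and 75.9, 73.6, 74.9, 88.5 and 88.9 CPM in cKO. All cKO libraries lay above all WT libraries, which holds for 12% of all genes tested. Numb rose by 0.45 on the log2 scale (SE 0.08, adjusted p = 0.00199). Itch, an E3 ligase that ubiquitinates NOTCH, also rose (0.27, adjusted p = 0.0228), as did Dtx3l (0.42, adjusted p = 0.00581), while the other Deltex genes Dtx3 (−0.65, adjusted p = 0.0297) and Dtx4 (−0.27, adjusted p = 0.0361) fell. Of these, Itch was called under 16 of 24 alternatives and Dtx3 and Dtx4 under 12 each. Nedd4, a further E3 ligase, had a log2 fold change of −0.30 and was not called with edgeR (adjusted p = 0.0615), but was with DESeq2 (adjusted p = 0.0457) and under 7 of 24 alternatives in all.

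At the nuclear steps, the related acetyltransferase genes Kat2a and Kat2b moved in opposite directions. Kat2a fell from 66.9 ± 8.36 to 50.8 ± 2.77 CPM (−0.40, adjusted p = 0.00632) and Kat2b rose from 24.0 ± 2.34 to 33.4 ± 2.23 CPM (0.47, adjusted p = 0.00204), without overlap of the genotypes in either. None of Maml1, Maml2, Maml3, Snw1 and Ep300 passed. Of 16 corepressor genes, Cir1, which encodes a partner of RBPJ (0.48, adjusted p = 0.00404), and the Groucho-family gene Tle4 (0.35, adjusted p = 0.00461) rose, and the deacetylase genes Hdac1 (−0.21, adjusted p = 0.0227) and Hdac2 (−0.20, adjusted p = 0.0366) fell. Cbfa2t3, which encodes the corepressor MTG16, had a log2 fold change of −0.35 and was not called with edgeR (adjusted p = 0.0523), but was with DESeq2 (adjusted p = 0.0461) and under 12 of 24 alternatives in all.

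Further genes listed as targets and the secretory regulators that HES1 holds back were lower where they were called. Of 3 further genes tested in the target group, Hes6, whose product counteracts HES1 in other tissues, fell from 51.0 ± 5.21 to 39.2 ± 3.63 CPM (−0.38, adjusted p = 0.00897). Olfm4, which is also a stem cell marker, fell (−0.50, adjusted p = 0.0250). Heyl, the other gene tested in this group, did not pass and had a positive log2 fold change (0.25, adjusted p = 0.657). Of 6 secretory regulators, Atoh1 was at 12.8 to 16.6 CPM in WT and 10.52 to 11.8 CPM in cKO, without overlap. Atoh1 fell by 0.31 on the log2 scale (adjusted p = 0.0193). Spdef, a goblet and Paneth cell regulator downstream of Atoh1, fell from 18.1 ± 1.28 to 13.0 ± 1.35 CPM (−0.47, adjusted p = 0.00352). The other 4 did not pass and went both ways. Neurod1 (0.44, adjusted p = 0.0782) and Insm1 (0.19, adjusted p = 0.225) had positive log2 fold changes. Those of Neurog3 (−0.20, adjusted p = 0.169) and Gfi1 (−0.22, adjusted p = 0.297) were negative. The goblet markers summed to 2636 to 3692 CPM in WT and 3496 to 4192 CPM in cKO. With edgeR 0 of 6 were called (2 at an unadjusted p below 0.05), and DESeq2 called 1, Clca1, higher (adjusted p = 0.0339). The other secretory types went both ways: the Paneth markers, given above, were lower, and enteroendocrine and tuft markers were higher. Of the enteroendocrine markers 3 of 6 were called higher, with sums of 346 to 418 CPM in WT and 452 to 685 CPM in cKO. Of the tuft markers 3 of 6 were called higher, with sums of 95.8 to 108 and 112 to 129 CPM. The enteroendocrine and tuft sums did not overlap between the genotypes. The enterocyte markers, 6 of 6 called higher, summed to 1165 to 5986 CPM in WT and 7060 to 13324 CPM in cKO. Among all genes tested, 15.6% were called higher and 12.7% lower. Of the stem cell markers 4 of 6 were called lower, and their sums were 516 to 743 CPM in WT and 426 to 577 CPM in cKO. The part of these shifts in the NOTCH gene results was not tested.

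**Figure D5:**
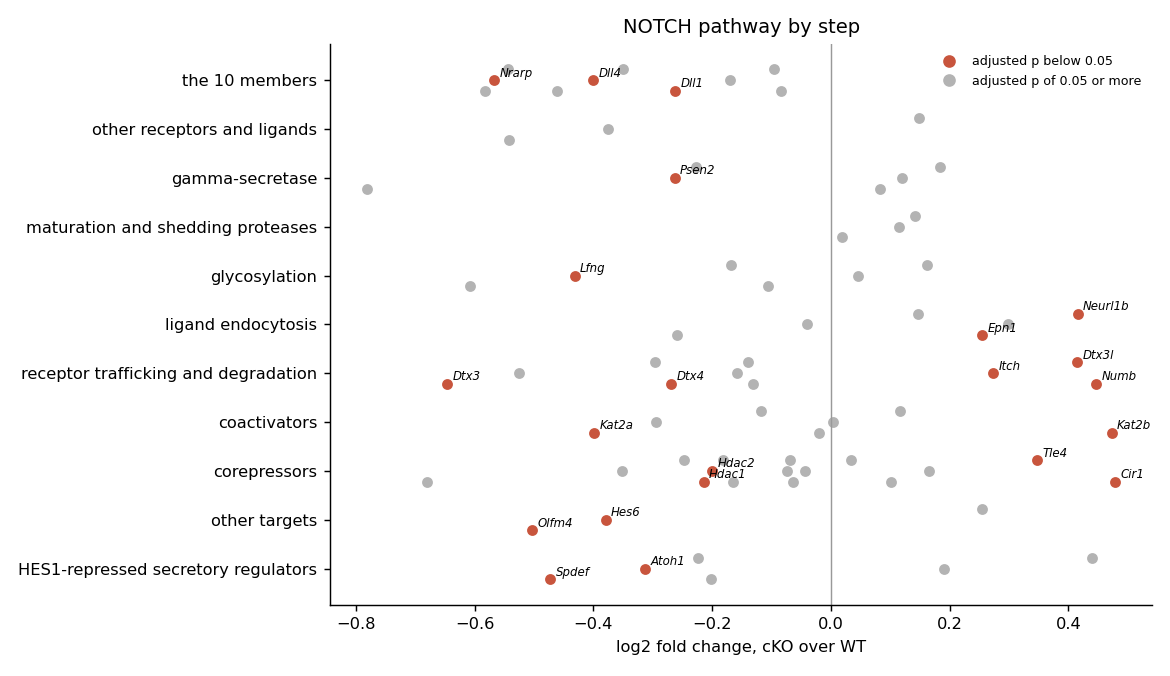
log2 fold change, cKO over WT, of the tested NOTCH pathway genes reported here, grouped by step; red points are called at an adjusted p below 0.05 and named, gray points are not, and the vertical offset within a row only separates points. The 3 called members lie left of 0, and the called genes of receptor trafficking, the coactivators and the corepressors lie on both sides.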

How the data were processed

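The authors prepared RNA-seq libraries from polyadenylated crypt RNA, aligned them with STAR and quantified genes with RSEM on GRCm38. The deposited tables list, for each of 54838 genes, an expected count, the TPM and the FPKM, with no filter and no scaling between libraries. The authors' TPM and FPKM are corrected for effective length, and FPKM served only to check the order of levels. Names and coordinates came from the GENCODE annotation of GRCm38, which matched 54723 gene IDs (the others held 0.019% of counts). RSEM divides reads shared between gene copies by estimate.

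Expected counts, of which 11% were not whole, were rounded. Genes were filtered with filterByExpr (minimum count 10, total 15), scaled by TMM and tested with edgeR 4.0.16 (robust quasi-likelihood, R 4.3.3, genotype as the only term, since the study's model of genotype and time has 1 time point here). Benjamini-Hochberg adjustment ran over all 14719 genes tested, at 0.05. CPM are TMM-scaled. Correlations used log2(CPM + 0.5). Counts were also simulated, with 100 genes each of 14719 changed by 2 sizes. Of these, 31 of 100 were recovered at a log2 fold change of 0.5 and 69 of 100 at 1, so smaller changes were often missed there. Far fewer genes changed in the simulation than were called in the data (4167), which makes the adjusted threshold stricter. The shares recovered are therefore not the power of the comparison itself. Members, lists and tests were chosen with earlier results of these data known. The genes named were Arid3a, the 10 members, every further pathway gene called by edgeR or by DESeq2 (1 of these stays in the counts but is not reported here), and the 3 genes most like Hes1, Dll1 and Notch1. Hes5, Dll3, Dner, Notch4 and other uncalled genes were named after their values were seen. Promoter windows came from RefSeq.

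Alternatives were DESeq2 1.42.0, limma 3.58.1 (voom, log2(TPM + 1) and log2(TPM + 0.1)), RLE factors, scaling on library size alone, all genes unfiltered, a minimum of 10 counts in each library, the effective length and a length trend as offsets, the replicate number as a block, sums over animals with one identifier stem, and leaving out animals. Replicates are separate mice. Libraries differed from each other by far more than sampling noise. Intervals and p-values measure the spread between these animals.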

Additional observations from a re-analysis of the deposited data

Results flagged for a closer look

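Values of 33 named genes were examined for a library far from the other 4 of its genotype, by the gap to the nearest library over the range (Dixon's critical value 0.71). Of 66 groups, 4 held such a library, and chance gives about 1 in 20. Numb was at 65.8 CPM in WT replicate 1, above the other WT libraries and below all cKO libraries. Dtx3l was at 54.8 CPM in WT replicate 1, which equals the lowest cKO library (54.8 CPM). Hdac2 was at 134 CPM in WT replicate 4, above the other 4. Tle4 was at 63.0 CPM in cKO replicate 4, below the other cKO libraries and above all WT libraries. None of the 10 members had such a library.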

How the results depend on the processing

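Of the genes named, Nrarp, Dll4, Kat2a, Kat2b, Cir1, Tle4, Hes6 and Spdef were called under all 24 alternatives, and Arid3a under all 23 that gave a value. Psen2 and Hdac2 were called under 13, Hdac1 under 15, Itch under 16, and Epn1, Dtx3 and Dtx4 under 12. Dll1 was called under 11, Notch1 under 8, Notch2 under 6, Jag2 under 4, and Notch3, Jag1, Rbpj and Hes1 under none. The number of members called was 5 with DESeq2, 6 with library size only, 5 with the length trend as an offset, 5 without WT replicates 2 and 5, 2 with no filter, with the effective length offset and in both TPM fits, and 2 to 6 with each animal left out in turn (6 without WT replicate 2). Without WT replicates 3 and 4 together, 2142 genes were called in all (3007 to 4684 with 1 animal left out), 10 of the further pathway genes (11 to 24) and 12 marker genes, against 24 (15 to 24, with 15 without WT replicate 3 or cKO replicate 1). In the same fit the log2 fold changes of Notch3 and Rbpj reversed, to 0.14 (adjusted p = 0.870) and 0.014 (adjusted p = 0.933). The fit of the same size without WT replicates 2 and 5 called 5082 genes, 25 further pathway genes and 29 marker genes. The cause was not tested.

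Same-numbered WT and cKO libraries did not deviate together (correlations of −0.157 to 0.131), so no pairing by replicate number was seen. These correlations run over all tested genes and cannot exclude a weaker pairing. With the replicate number as a block, 3048 genes and 3 members were called (Nrarp, adjusted p = 0.0113; Dll4, 0.0210; Dll1, 0.0393), and 14 of the further pathway genes. Summing animals that share an identifier stem gave 2895 genes and 4 members called: Dll1 was lost (adjusted p = 0.0852), and Notch1 (0.0227) and Notch2 (0.0241) were gained. Stems are nested in genotype, and what they mark is not given, so stem and genotype cannot be told apart. Depth limits Notch3, Hes5 and the endothelial markers.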
